A study of Mus musculus with 10 samples.

Results

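The suppressor of cytokine signalling (SOCS) family consists of 8 genes in the mouse, Cish and Socs1 to Socs7, and their messenger RNA was followed here in inflamed ear skin. The members were taken by gene symbol. All 8 were found among the 41388 genes counted and all 8 were among the 16830 genes with enough reads to be tested. The study sequenced 10 libraries of whole ear skin of C57Bl/6 mice, 4 labelled Littermate and 6 labelled Experimental. Both groups had received topical calipotriol (MC903), a vitamin D analogue that provokes an atopic dermatitis-like inflammation, at 1 nM daily for 12 days, so no untreated skin was compared. The Littermate libraries carry the genotype label WT. The series text describes the Experimental mice as NaV1.8+ Il4raF/F, that is with a floxed interleukin-4 receptor alpha gene and a NaV1.8 driver active in sensory neurons, whereas the genotype label on the Experimental samples reads NaV1.8+ Jak1F/F. The files do not settle this conflict. Scn10a, the gene that encodes NaV1.8, had 2 counts in all 10 libraries together, and a deletion confined to those neurons would leave the gene intact in the other cells of the skin. The groups are therefore named here by the labels Littermate and Experimental. The sources used here do not give age, litter or batch.

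SOCS proteins are feedback brakes on cytokine receptors. A cytokine activates Janus kinases (JAKs) at its receptor, these activate STAT transcription factors, and STATs switch on SOCS genes. The SOCS protein then binds the receptor or the kinase through its SH2 domain, and through its SOCS box recruits elongins B and C with cullin 5, which mark the bound proteins for destruction. CIS (the product of Cish), SOCS1, SOCS2 and SOCS3 are the cytokine-induced members, and in skin SOCS1 and SOCS3 are known for restraining interferon and interleukin-6-type signals in keratinocytes and immune cells. SOCS4 to SOCS7 are less dependent on cytokines and are better known for acting on growth factor and insulin receptor signalling.

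The promoter windows of 2 cytokine-induced members are shown because they carry the palindrome through which STAT proteins act. Windows of 300 bases, 250 before and 50 after the RefSeq transcription start (GRCm38.p6), were available for 4 of the 8 members, Cish, Socs1, Socs3 and Socs4. The motif searched was TTCNNNGAA, which reads the same on both strands. It was present in 2726 of 32851 such windows of the genome (8.3%), and 150 windows (0.457%) held it at least 2 times. The Cish window held 2 matches, at bases 251 and 262 of the window, and the Socs3 window held 1, at base 97. Both Cish matches thus lie at or after the RefSeq start, and the Socs3 match lies before it. The Socs1 and Socs4 windows held no match to these letters. The first 280 bases of both windows with a match are printed 5′ to 3′ on the strand of the gene, with the matches in capitals, from chr9:107296409-107296688 (plus strand) for Cish and from chr11:117969337-117969616 (minus strand) for Socs3.
Cish: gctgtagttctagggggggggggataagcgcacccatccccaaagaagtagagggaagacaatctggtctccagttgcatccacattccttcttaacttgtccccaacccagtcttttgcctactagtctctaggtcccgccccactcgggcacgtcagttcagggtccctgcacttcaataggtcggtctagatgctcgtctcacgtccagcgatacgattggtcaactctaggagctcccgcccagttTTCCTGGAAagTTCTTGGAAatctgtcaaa
Socs3: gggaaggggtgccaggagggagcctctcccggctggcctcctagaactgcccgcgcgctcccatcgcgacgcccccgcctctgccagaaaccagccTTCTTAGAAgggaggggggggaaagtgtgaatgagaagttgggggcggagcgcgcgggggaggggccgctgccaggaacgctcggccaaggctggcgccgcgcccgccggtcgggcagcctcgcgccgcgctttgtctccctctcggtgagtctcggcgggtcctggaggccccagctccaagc

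The libraries held between 11520348 and 41935183 counted reads, and the counts behind a single SOCS value ran from 91 (Socs1) to 2720 (Socs3). The keratinocyte marker list (Krt5, Krt14, Krt1, Krt10, Trp63, Dsp) summed to between 29940 and 37750 CPM (counts scaled to a library of 1e6) in every library, as the tissue label skin requires. The Y-linked gene Ddx3y lay between 71.8 and 117 CPM and Xist at or below 0.367 CPM in all 10 libraries. Littermate 2 and Experimental 6 stood apart in the summed level of the neutrophil markers S100a8, S100a9, Csf3r, Cxcr2, Retnlg and Mmp8, at 577 and 496 CPM, against 297 to 338 CPM in the other Littermate libraries and 201 to 330 CPM in the other Experimental libraries. Experimental 6 was also the highest library for the summed basophil markers, at 275 CPM, against 92.2 to 210 CPM in the other 9 libraries. Most of that sum, 223 CPM, came from Hdc, and the basophil markers Cd200r3 and Il3ra were not highest in that library. The 9 handling-response genes (Fos, Fosb, Jun, Egr1, Atf3, Hspa1a, Hspa1b, Dusp1, Ier2), which respond to tissue handling and stress, summed to 405 to 479 CPM in the Littermate and 347 to 448 CPM in the Experimental libraries. None passed, and 5 of the 9 were lower in Experimental skin at an unadjusted p under 0.05 in edgeR, beside 8.1% of all tested genes. The list median log2 fold change was -0.385, beside -0.001 for all tested genes. The slope of all genes' log2 level on GC content, per 10 points of GC, was 0.065, -0.035, 0.065 and 0.161 in Littermate 1 to 4 and between -0.117 and 0.008 in the Experimental libraries, so it was lower in the Experimental libraries than in all Littermate libraries but Littermate 2. The part of handling and of GC content in the group differences was not tested beyond the GC correction given with them. Results on the members are given with all 10 libraries and, where it changes a call, without Littermate 2 and Experimental 6.

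Per length, Socs3 was the most abundant SOCS transcript in this skin. The deposited RPKM values (reads scaled to exon length and library total) averaged 26.7 ± 4.66 (SD, n = 10 libraries) for Socs3, and Socs3 made up 39.0% of the summed family level, between 33.3% and 46.5% in single libraries. Socs5 averaged 8.12 ± 0.931, Socs1 8.01 ± 1.27 and Socs7 7.48 ± 0.400 RPKM. Socs6 averaged 6.11 ± 0.396 and Socs4 5.93 ± 0.398 RPKM. Cish averaged 3.82 ± 0.559 RPKM, and Socs2 was the lowest member at 1.76 ± 0.143 RPKM, below Cish in 10 of 10 libraries. Socs3 exceeded the next member, Socs5, in 10 of 10 libraries. The order of Socs5, Socs1 and Socs7 was not fixed: Socs5 lay above Socs1 in 4 of 10 libraries and Socs1 above Socs7 in 6 of 10. Socs7 lay above Socs6 in 10 of 10, Socs6 above Socs4 in 7 of 10, and Socs4 above Cish in 10 of 10. The length used by the authors counts every annotated exon base of a gene, so a gene with long or many alternative exons, such as Socs2 with 9531 bases in 13 exon intervals, receives a lower value per length than a gene with a single compact transcript such as Socs1 with 1220 bases.

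**Figure D1:**
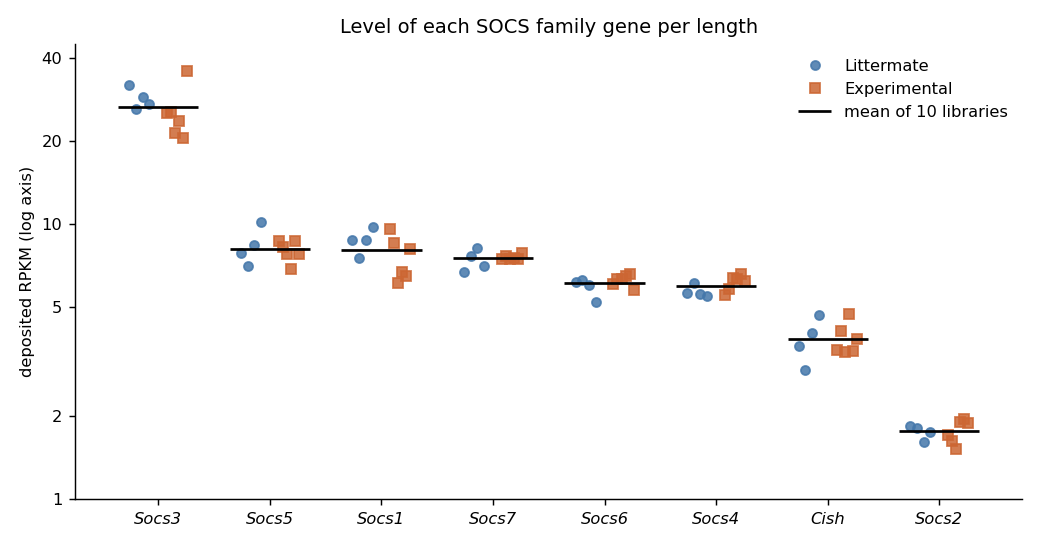
Deposited RPKM (vertical log axis) of the 8 SOCS genes, ordered by mean; circles are the 4 Littermate and squares the 6 Experimental libraries, and the line is the mean of the 10. Socs3 stands above all other members in every library, Socs5, Socs1 and Socs7 overlap, and Socs2 lies lowest.

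None of the 8 genes differed between the groups at an adjusted p under 0.05 in edgeR's quasi-likelihood test, and all 8 showed overlapping groups. The test across all 16830 genes called 3 genes, or 0.0178%, so the comparison as a whole called almost nothing. At an unadjusted p under 0.05, where 11.8% of all genes lay, the count of SOCS genes was also 0. Groups that did not overlap were seen for 2.12% of all genes and for none of the 8. The differences below are therefore given as values with their intervals, which state the size of change these data can leave unseen. In whole skin, fewer cells of a type and less RNA per cell cannot be told apart in any of them. The series text speaks of 6 mice and 4 littermates, which equals the number of libraries, but no label ties a library to a mouse, so p-values measure the spread between these libraries.

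Cish encodes CIS, a STAT5-induced inhibitor of receptors that signal through STAT5 (chr9:107296026-107302784, plus strand, mm10). Its normalized level was 23.2, 18.9, 26.2 and 30.2 CPM in Littermate 1 to 4. In the Experimental libraries it ran from 21.99 over a median of 23.4 to 29.6 CPM. The Experimental values all fell inside the Littermate range. The log2 fold change (Experimental minus Littermate, here and throughout) was -0.01 with a 95% interval of -0.28 to 0.25 and an adjusted p of 0.985 in edgeR. Of its exon bases, 11.5% overlap the opposite-strand models Gm17040 and Gm17041, and the library preparation described did not keep strand, so reads of these models cannot be told from those of Cish. Other annotated transcripts, read on either strand, also hold 9.35% of the 50-base windows of its transcripts, a share that can include this overlap.

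Socs1 encodes a direct inhibitor of JAK kinases that is induced by interferons and also restrains interleukin-4 signalling (chr16:10783808-10785536, minus strand). It measured 10.7, 9.16, 10.8 and 12.0 CPM in the Littermate libraries. The Experimental libraries measured 11.7, 10.3, 7.45, 8.003, 7.95 and 9.83 CPM. Experimental 3, 4 and 5 lay below every Littermate value and the other 3 Experimental libraries lay within the Littermate range. The log2 fold change was -0.21 (SE 0.138, 95% interval -0.50 to 0.09), with an adjusted p of 0.591 in edgeR. With the smooth dependence on transcript GC content taken out of each library (the GC correction) it was -0.082 (adjusted p = 0.869 in edgeR). It turned to 0.03 under a covariate built from Y-linked genes. Ddx3y lay at or above 71.8 CPM and Xist at or below 0.367 CPM in all 10 libraries. That covariate thus did not contrast male with female libraries. The estimate without correction was the lowest of the 8, and its interval reaches from a 0.706-fold to a 1.06-fold level.

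Socs2 encodes the inhibitor best known for limiting growth hormone receptor signalling (chr10:95385362-95417180, minus strand). It varied little, with 17.6, 17.2, 15.6 and 16.9 CPM in the Littermate libraries and 14.5 to 18.7 CPM, median 17.03, in the Experimental libraries. The Experimental range enclosed the Littermate range on both sides. Of the 50-base windows of its transcripts, 4.58% also occur in other transcripts. Its log2 fold change was -0.01 (95% interval -0.21 to 0.19), with an adjusted p of 0.973 in edgeR.

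Socs3 encodes the STAT3-induced inhibitor of gp130 receptors, which bind interleukin-6 and oncostatin M among others, and of the G-CSF and leptin receptors (chr11:117966079-117970047, minus strand). It measured 92.8, 75.6, 85.2 and 79.8 CPM in Littermate 1 to 4. Experimental 1 to 6 measured 72.9, 73.5, 62.1, 67.1, 59.6 and 103 CPM. The first 5 Experimental libraries all lay below the lowest Littermate library, and Experimental 6 lay above the highest. With all 10 libraries the log2 fold change was -0.19 (SE 0.132, 95% interval -0.48 to 0.10), with an adjusted p of 0.609 in edgeR. Without Experimental 6 it was -0.31, adjusted p = 0.115 in edgeR. Without Littermate 2 and Experimental 6 it was -0.35 and passed, with an adjusted p of 0.0432 in edgeR, in a comparison that called 3.34% of all genes. Littermate 2 was the lowest Littermate library for Socs3 and Experimental 6 the highest Experimental library. This call is therefore not independent of leaving them out. Over the 24 alternatives tried for Socs3 the adjusted p ran from 0.0432 to 0.992 and the estimate stayed below 0, from -0.35 to -0.065.

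Of the bases of the longest Socs3 transcript, 58.7% are G or C. After the GC correction the Socs3 estimate was -0.065 (adjusted p = 0.910 in edgeR). With that correction and without Littermate 2 and Experimental 6 it was -0.22 (adjusted p = 0.186 in edgeR), in a comparison that called 1.62% of all genes, and 0 of 8 SOCS genes passed there. The call for Socs3 was therefore made under 1 of 24 alternatives.

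Socs4 and Socs5 encode a related pair of proteins linked to turnover of the EGF receptor. Socs4 (chr14:47276931-47296098, plus strand) measured 38.9, 41.8, 38.9 and 38.03 CPM in the Littermate libraries and 37.7, 39.7, 43.6, 42.2, 45.3 and 42.4 CPM in the Experimental libraries. Experimental 3 to 6 lay above every Littermate value, Experimental 1 lay below all of them and Experimental 2 lay among them. For Socs4 the log2 fold change was 0.08 (95% interval -0.07 to 0.24), with an adjusted p of 0.681 in edgeR. After the GC correction it was 0.008 (adjusted p = 0.972 in edgeR), and it lay below 0 with the Y-linked covariate, at -0.011. Socs5 (chr17:87107679-87137583, plus strand) measured 34.7, 30.7, 37.5 and 45.04 CPM in the Littermate libraries and 29.5 to 38.2 CPM, median 35.0, in the Experimental libraries. Its highest value belonged to Littermate 4 and its lowest to Experimental 4, and the groups overlapped. For Socs5 the log2 fold change was -0.08 (95% interval -0.30 to 0.14), with an adjusted p of 0.809 in edgeR.

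Socs6 and Socs7 encode a related pair that binds receptor tyrosine kinases and insulin receptor substrates. Socs6 (chr18:88665224-88927481, minus strand) measured 51.0, 51.4, 50.1 and 43.5 CPM in the Littermate libraries and 47.0 to 54.5 CPM, median 51.8, in the Experimental libraries. Littermate 4 was the single low library. For Socs6 the log2 fold change was 0.06 (95% interval -0.09 to 0.21), with an adjusted p of 0.776 in edgeR, and it was -0.008 with the GC correction. Of the 50-base windows of its transcripts, 6.14% also occur in other annotated genes, so a small part of its reads may have been assigned elsewhere. Socs7 (chr11:97362551-97398542, plus strand) measured 48.8, 55.6, 60.1 and 51.7 CPM in the Littermate libraries and only 53.5 to 56.5 CPM, median 54.4, in the Experimental libraries. The Experimental range lay wholly inside the Littermate range. For Socs7 the log2 fold change was 0.02 (95% interval -0.13 to 0.16), with an adjusted p of 0.955 in edgeR.

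**Figure D2:**
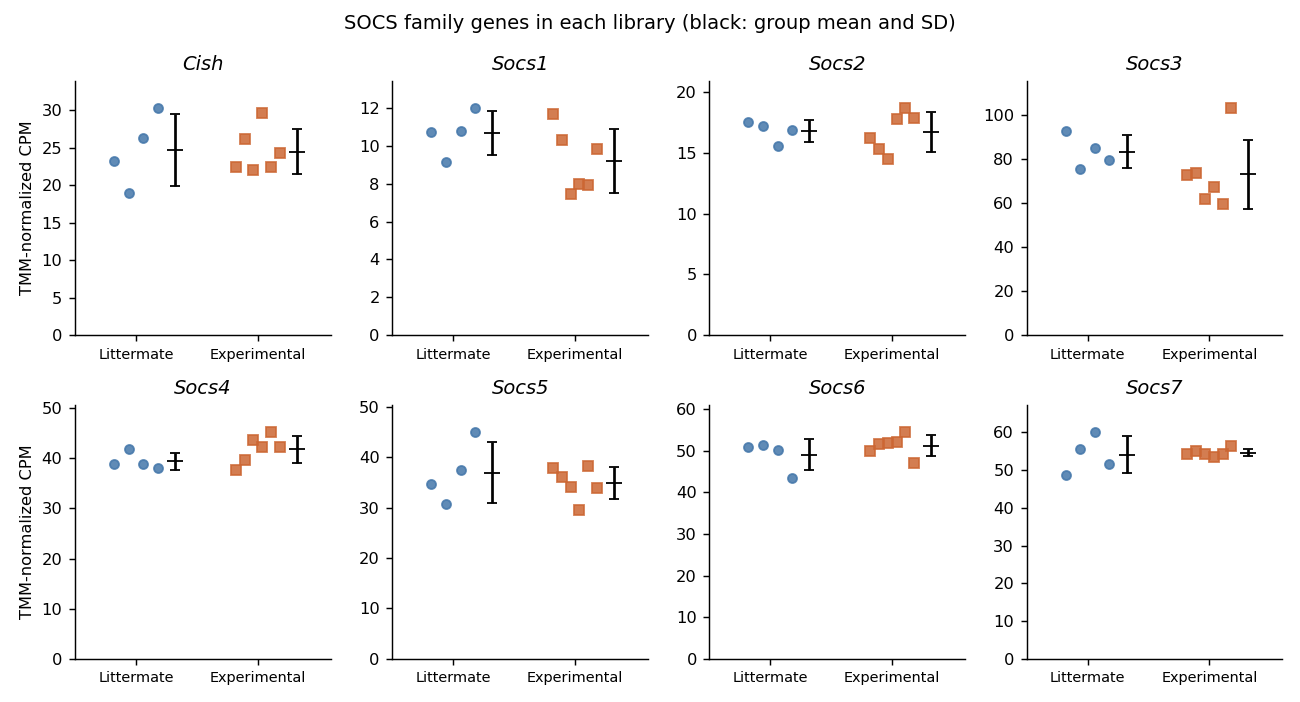
TMM-normalized CPM (vertical axes, from 0) of each SOCS gene in the 4 Littermate (circles) and 6 Experimental (squares) libraries, in order of replicate number; black marks are group mean and SD. The groups overlap for all 8 genes, and Experimental 6 stands alone at 103 CPM for Socs3.

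**Figure D3:**
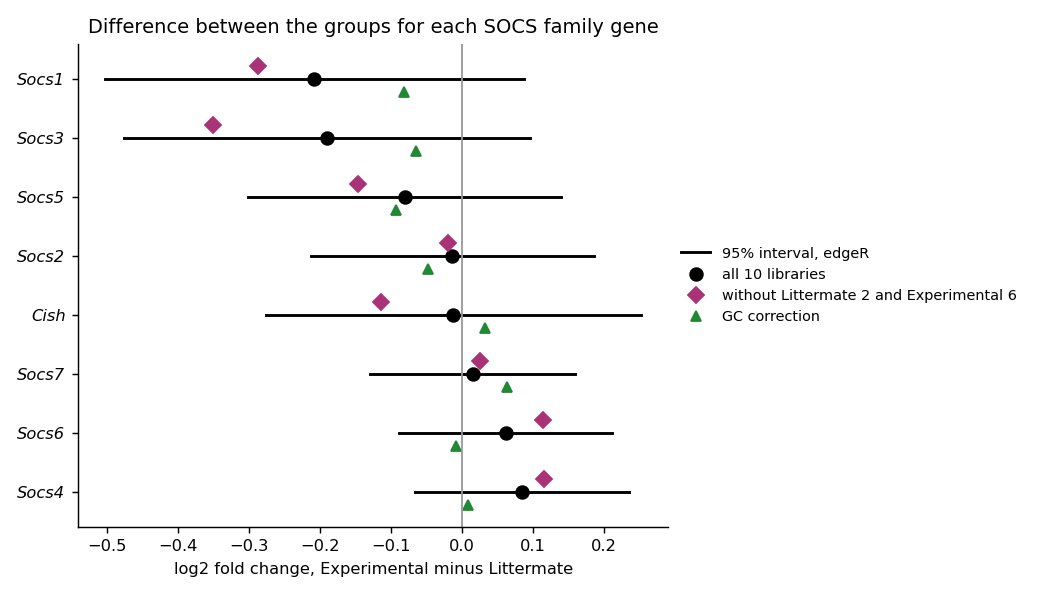
Log2 fold change of each SOCS gene (horizontal axis, Experimental minus Littermate): circles with bars are the edgeR estimates and 95% intervals with all 10 libraries, diamonds leave out Littermate 2 and Experimental 6, and triangles use the GC correction. All 8 intervals include 0, and the Socs3 diamond at -0.35 lies farthest from 0.

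The members differed in how much they varied between libraries of the same group. The measure is edgeR's biological coefficient of variation, the relative spread within groups beyond counting error, which was 12.8% for the common trend of all genes. Socs7 (8.002%), Socs6 (8.17%) and Socs4 (8.18%) were among the steadiest genes, at percentiles 4.56, 6.77 and 6.95 of the 12369 genes whose mean reached 5 CPM. Socs2 (10.2%, percentile 42.2) and Socs5 (11.5%, percentile 60.3) lay in the middle. Cish (13.5%), Socs1 (14.4%) and Socs3 (14.7%) lay at percentiles 79.0, 83.5 and 84.3. The value for Socs3 rests on Experimental 6 and was 9.69% without that library. For Socs1, the member with the fewest reads, counting error alone gives a coefficient of variation of 8.13%, of the 16.4% seen over all 10 libraries. With the GC correction the values were 15.1% for Socs3, 13.3% for Socs1 and 12.6% for Cish, and 7.93%, 7.05% and 6.95% for Socs7, Socs6 and Socs4.

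Of the 28 pairs of SOCS genes, 1 passed a permutation test with Benjamini-Hochberg adjustment over the 28. Socs1 and Socs4 were opposed across the 10 libraries, with Pearson's r = -0.922 on log2 levels (permutation p = 0.00019, adjusted p = 0.00532) and Spearman's rho = -0.927 (permutation p = 0.00044). Without the 2 libraries farthest from the median of Socs1 r was -0.893, and leaving out each library in turn gave -0.952 to -0.906. Within the 6 Experimental libraries r was -0.881 (exact permutation p = 0.0153), which did not pass over the 28 pairs (adjusted 0.214), and with both groups centred on their means it was -0.898 (exact permutation p = 0.0015). The 4 Littermate libraries are too few for a value of their own. Library by library, the highest Socs1 levels (Littermate 4 and Experimental 1) came with the lowest Socs4 levels, and the low Socs1 levels of Experimental 3, 4 and 5 with high Socs4 levels.

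The opposition of Socs1 and Socs4 moved with the base composition of the libraries. Socs1 has a GC-rich transcript (58.8%) and Socs4 an AT-rich one (38.5% GC). The slope of level on GC content was lowest in Experimental 5 and highest in Littermate 4. Across the 10 libraries this slope gave r = -0.840 with Socs4 (permutation p = 0.00178, adjusted over 8 genes 0.0142, rho = -0.888, permutation p = 0.0011) and r = 0.756 with Socs1 (permutation p = 0.01, adjusted 0.0402, rho = 0.863, permutation p = 0.00254). Without the 2 libraries with the most extreme slopes, Littermate 4 and Experimental 5, r was -0.784 for Socs4 and 0.618 for Socs1 (permutation p = 0.103), so the relation with Socs1 rests in part on those libraries. No other member passed over the 8 genes. With the slope, r was 0.573 for Cish, 0.504 for Socs5 and 0.432 for Socs3 (58.7% GC). It was -0.125 for Socs2, -0.294 for Socs7 (53.8% GC) and -0.694 for Socs6, which was at 0.124 without those 2 libraries. With the GC correction the correlation of Socs1 and Socs4 was -0.253 (permutation p = 0.475), and no pair of SOCS genes passed. Socs1 and Socs6 (39.9% GC) had r = -0.655 before (adjusted permutation p = 0.422) and -0.026 after the correction.

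Socs1 with Socs5 had r = 0.592 before and 0.578 after the correction, and Socs1 with Socs3 had r = 0.623 before and 0.517 after. Neither passed over the 28 pairs (adjusted permutation p = 0.422 for both before correction). Among the other pairs of the 4 cytokine-induced members r was low: 0.264 for Cish with Socs1, 0.007 for Cish with Socs2, 0.125 for Cish with Socs3, -0.074 for Socs1 with Socs2 and 0.161 for Socs2 with Socs3.

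**Figure D4:**
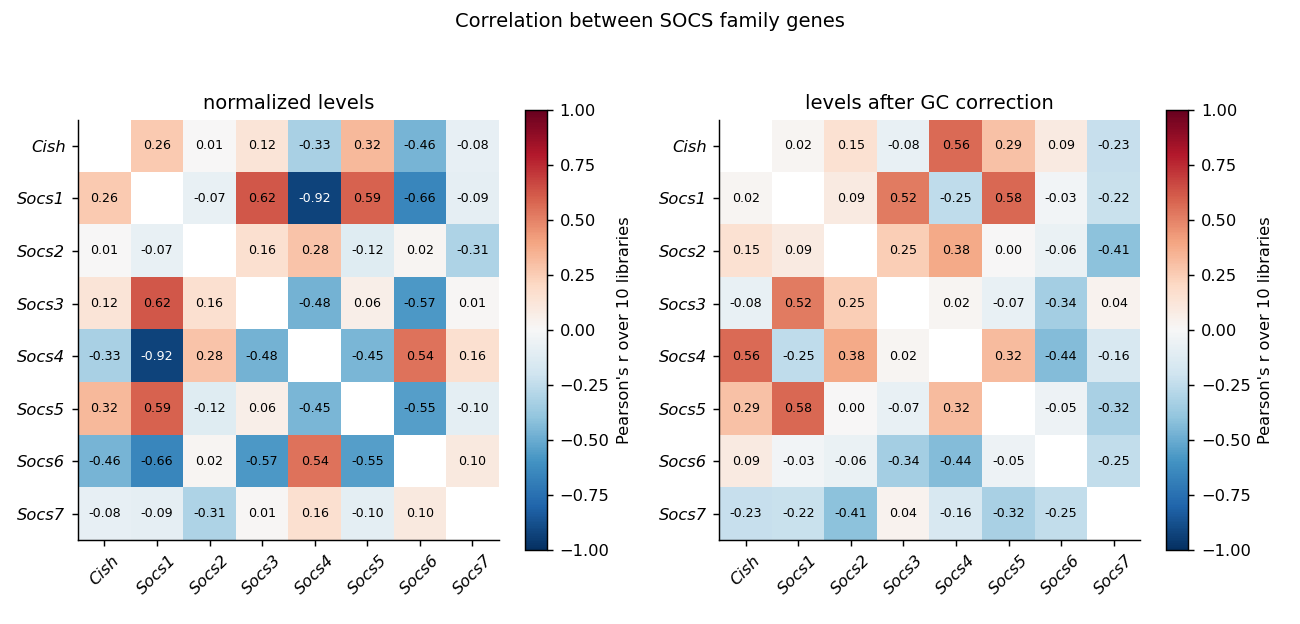
Pearson's r over the 10 libraries for each pair of SOCS genes, from normalized log2 levels (left) and after the GC correction (right); colour and printed value both give r. The strong cell of Socs1 and Socs4 at left, -0.92, is -0.25 at right, while Socs1 with Socs5 stays near 0.58.

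Each cytokine-induced member was set against genes known to induce it or to share its regulator, 14 pairs in all. None passed over the 14 pairs with all libraries and no correction. Socs3 came closest, with Osm, the gene of the gp130 cytokine oncostatin M: r = 0.804 (permutation p = 0.0053, adjusted 0.0742) and rho = 0.806 (permutation p = 0.00686). Osm measured 12.4, 6.08, 10.7 and 10.99 CPM in the Littermate libraries and 7.17, 8.43, 4.92, 3.51, 8.30 and 22.1 CPM in the Experimental libraries. Experimental 6, the highest library for Socs3, was also the highest for Osm, and Littermate 1 was second for both. Without the 2 libraries farthest from the Socs3 median (Experimental 5 and 6) r was 0.865, and leaving out single libraries gave 0.670 (without Experimental 6) to 0.924 (without Experimental 5, where the pair passed). With the GC correction r was 0.835 and the pair passed, with an adjusted permutation p of 0.0399, but without the 2 farthest libraries on that scale it was 0.531.

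Il6, the gene of interleukin-6, gave r = 0.691 with Socs3 (permutation p = 0.0248, adjusted 0.174) and rho = 0.636 (permutation p = 0.0525) at levels of 1.29 to 4.71 CPM. Without Experimental 6 r was 0.426, without Experimental 5 it was 0.860 and passed (adjusted permutation p = 0.0177), and without both it was 0.741. Csf3, the gene of the neutrophil growth factor G-CSF, gave r = 0.651 (permutation p = 0.0426, adjusted 0.199) and rho = 0.709 (permutation p = 0.0258), and r was 0.753 without Experimental 6. Bcl3, a STAT3 target, gave r = 0.410 with Socs3 (adjusted permutation p = 0.492), 0.231 to 0.777 with single libraries left out and 0.831 without Experimental 5 and 6. Fos, an immediate-early gene, gave r = -0.226, with -0.377 to 0.258 when single libraries were left out. Socs1 gave r = 0.427 with Irf1 (adjusted permutation p = 0.492), an interferon-induced transcription factor gene. With both groups centred this was 0.729 (exact permutation p = 0.0433, adjusted 0.242). Ifng, the gene of interferon gamma, had at most 11 counts in a library. Cish gave r = 0.481 with Il13, 0.285 with Pim1 and -0.394 with Tslp. Socs2 gave r = 0.378 with Igf1, -0.240 with Ghr, the growth hormone receptor, and -0.168 with Bcl6. The adjusted permutation p of these 6 pairs of Cish and Socs2 was 0.492 or higher.

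Markers of immune cells were set beside the members as well. The 8 SOCS genes were compared with the summed level of 15 lists, 14 of cell type markers and 1 of handling-response genes, in a comparison added after the data had been seen. Of these 120 pairs 0 passed with all libraries. The closest was Socs3 with the 5 basophil markers Mcpt8, Cd200r3, Il3ra, Fcer1a and Hdc, with r = 0.894 (permutation p = 0.00053, adjusted 0.0636) and rho = 0.842 (permutation p = 0.00365). Their sum was 190, 139, 179 and 210 CPM in the Littermate libraries and 116, 119, 92.2, 100, 120 and 275 CPM in the Experimental libraries, with all 5 markers detected. The same 5 Experimental libraries that were low for Socs3 were thus low for basophil markers, and Experimental 6 was the highest for both. Hdc, the histamine-forming enzyme and the largest term of the sum, made up 223 of the 275 CPM in Experimental 6. Mcpt8 and Fcer1a were also highest in that library, at 19.3 and 9.72 CPM, whereas Cd200r3 (15.1 CPM) and Il3ra (8.20 CPM) ranked 3 of 10 there, below values in the Littermate libraries. Leaving out Experimental 6 gave r = 0.826, and leaving out Experimental 5 gave 0.939, where the pair passed with an adjusted permutation p of 0.0165. With the GC correction r was 0.835 (adjusted permutation p = 0.193), and without the 2 farthest libraries on that scale it was 0.632. Among the single basophil markers r with Socs3 ran from 0.557 (Il3ra) to 0.867 (Hdc). The macrophage list (Adgre1, Csf1r, C1qa, C1qb, Mrc1, Cd68) gave r = 0.798 with Socs3, and the mast cell list (Cpa3, Mcpt4, Cma1, Tpsb2, Kit, Ms4a2) gave r = 0.776, both with an adjusted permutation p of 0.213. The macrophage markers did not move as 1: r with Socs3 was 0.833 for Mrc1, the largest term of the sum, and -0.028 for Adgre1. Among the mast cell markers it ran from 0.349 (Kit) to 0.864 (Tpsb2). The part of these cells in the Socs3 level was not tested. Among the other members, the endothelial list (Pecam1, Cdh5, Kdr, Tek, Emcn) gave r = 0.794 with Socs5 and 0.748 with Socs1 (adjusted permutation p = 0.213 for both). Without Littermate 4 and Experimental 4, the libraries farthest from the Socs5 median, the value for Socs5 was 0.476.

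**Figure D5:**
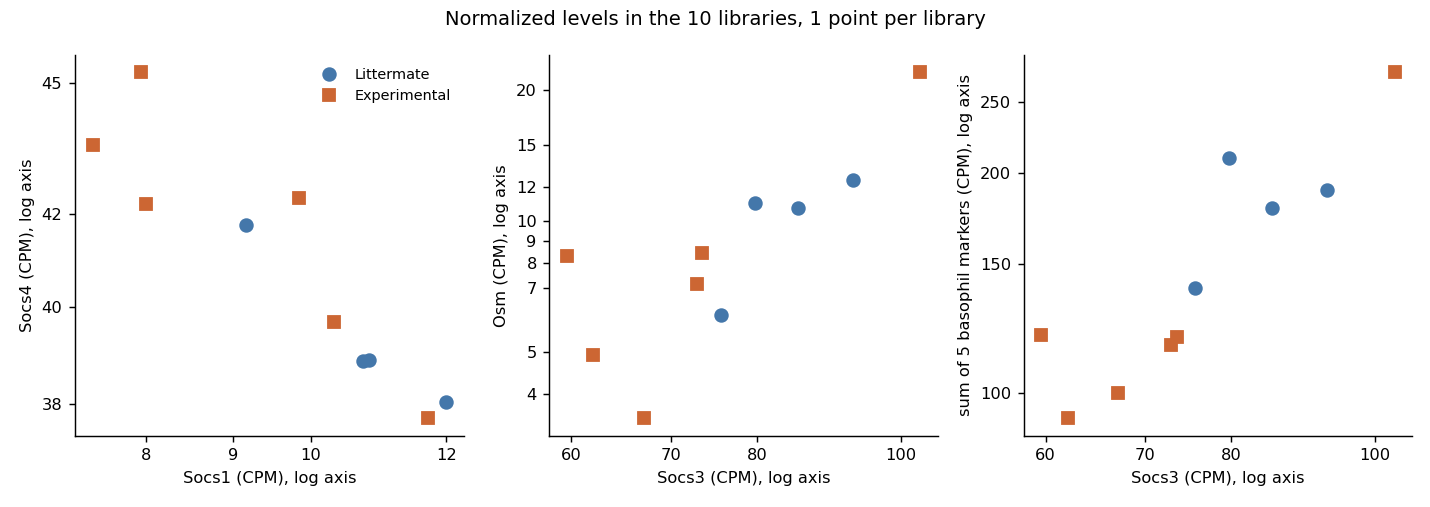
Normalized CPM (log axes) in the 10 libraries for Socs4 against Socs1, Osm against Socs3, and the summed basophil markers against Socs3; circles are Littermate and squares Experimental libraries. The first panel slopes downward in both groups, and in the other 2 panels Experimental 6 lies alone at the upper right (103 CPM for Socs3, 22.1 CPM for Osm, 275 CPM for the markers).

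For each member, the 3 genes most like it across the 10 libraries were found among 11939 named genes whose mean reached 5 CPM, by Pearson's r on log2 levels. These are the top of a long ranking and are given as a description. For Socs3 they were Il18rap (r = 0.975), the accessory chain of the interleukin-18 receptor, Cxcl5 (0.932), a chemokine that attracts neutrophils, and Fcgr3 (0.917), an Fc receptor of myeloid cells. Cxcl5 measured 22.4, 14.9, 19.98 and 13.6 CPM in the Littermate libraries and 11.3, 7.68, 2.41, 5.31, 6.12 and 58.2 CPM in the Experimental libraries, so it repeated the split of Experimental 6 from the rest. Without Experimental 6 the 3 values were 0.960, 0.887 and 0.862. With the GC correction they were 0.914, 0.911 and 0.917.

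For Cish the most similar genes were Fat2 (r = 0.916), an atypical cadherin, Shroom2 (0.876) and Sidt2 (0.871), and for Socs1 they were Sox13 (0.932), Mks1 (0.931) and Efhd2 (0.927). Socs2 had Pitpnc1 (0.863), Tmem9 (0.846) and Tacc3 (0.824). Socs5 had Lama4 (0.940), a laminin chain of vessel walls, Nup210 (0.938) and Tkfc (0.917). Socs7 had Fem1a (0.961), Acadvl (0.946) and Lonp2 (0.940). For these 5 members and Socs3 the GC-corrected r of the listed genes stayed between 0.749 (Tacc3) and 0.953 (Fem1a). In Socs4 and Socs6, the members with the most AT-rich transcripts, the GC-corrected r fell below that range for every listed gene but Tbc1d19. For Socs4, Trpm7 (0.972), Atl3 (0.948) and Btf3l4 (0.935) went to 0.739, 0.441 and 0.532 with the GC correction. For Socs6, Tbc1d19 (0.961), Ankrd49 (0.942) and Metap2 (0.942) went to 0.775, 0.678 and 0.716.

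The rest of the pathway, from ligand to target, also held no called gene. Lists of 24 ligands, 43 receptor chains, 4 JAKs, 7 STATs, 7 ubiquitin ligase partners, 13 other brakes, 19 STAT targets and 27 other SOCS-box genes were counted. Of these, 11 ligands, 41 receptor chains, 4 JAKs, 7 STATs, 7 partners, 13 brakes, 19 targets and 25 SOCS-box genes were tested, and 0 passed in each list, beside 0.0178% of all genes. The median log2 fold changes ran from -0.05 (STAT targets and other brakes) to 0.04 (ubiquitin ligase partners), beside -0.001 for all tested genes. At an unadjusted p under 0.05, beside 11.8% of all genes (3.65% higher and 8.1% lower), 1 ligand was higher and 1 lower in Experimental skin, with 3 and 3 receptor chains, 0 and 0 JAKs, 1 and 0 STATs, 1 and 0 ubiquitin ligase partners, 0 and 1 other brakes, 0 and 4 STAT targets and 0 and 2 SOCS-box genes. Groups did not overlap for 2 ligands, 1 receptor chain, 1 other brake and 1 STAT target, beside 2.12% of all genes.

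Among the ligands, the Socs3-inducing Csf3 measured 5.79, 3.96, 3.13 and 6.55 CPM in the Littermate libraries and 0.672, 2.03, 0.883, 0.572, 1.22 and 2.62 CPM in the Experimental libraries. The groups did not overlap. The log2 fold change was -1.82 (95% interval -2.62 to -1.02), with an adjusted p of 0.0860 in edgeR, 0.000821 in DESeq2, which called 1.5% of all genes, and 0.0340 in edgeR without Experimental 6, where 0.168% of all genes were called. Over its alternatives the adjusted p of Csf3 ran from 0.000821 to 0.877. Tslp, whose product signals through STAT5, was at 31.95 to 111 CPM in the Littermate libraries and 119 to 239 CPM, median 164, in the Experimental libraries, again without overlap. Its log2 fold change was 1.401 (95% interval 0.53 to 2.27), with an adjusted p of 0.229 in edgeR and 0.0257 in DESeq2, and 0.0257 to 0.906 over its alternatives. Lep, the leptin gene, was at 0.50 (adjusted p = 0.581 in edgeR).

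Among the receptors, Lepr, whose signal SOCS3 restrains, was at 21.1 to 24.3 CPM in the Littermate and 25.7 to 30.0 CPM in the Experimental libraries, a log2 fold change of 0.31 (adjusted p = 0.135 in edgeR, 0.0202 in DESeq2, 0.0202 to 0.877 over its alternatives). Il13ra1 (0.20, adjusted p = 0.3) and Flt3 (0.40, adjusted p = 0.329) were the other receptor chains named for the lowest p in edgeR. The 3 receptor chains that were lower at an unadjusted p under 0.05, named after their values were seen, were Csf2rb2 (log2 fold change -0.36), Csf2rb (-0.35) and Il3ra (-0.35), with adjusted p of 0.355, 0.374 and 0.349 in edgeR. Csf2rb encodes the shared beta chain of the interleukin-3, interleukin-5 and GM-CSF receptors, and Csf2rb2 a beta chain of the interleukin-3 receptor. Il3ra encodes the interleukin-3 receptor alpha chain and is also in the basophil list. Without Littermate 2 and Experimental 6, Csf2rb2 (-0.56), Csf2rb (-0.54) and Csf3r (-1.22), the G-CSF receptor, were called in edgeR, beside 3.34% of all genes. With the GC correction added to the same exclusion they were called at -0.50, -0.48 and -1.16, beside 1.62% of all genes. Those 2 libraries stood apart in a neutrophil marker sum that includes Csf3r, so the Csf3r call is not independent of leaving them out. With all 10 libraries Csf3r, also a neutrophil marker, was at -0.62 (adjusted p = 0.626 in edgeR). Il4ra, the gene that the series text describes as floxed, was at 184 to 236 CPM in the Littermate and 130 to 270 CPM in the Experimental libraries (log2 fold change -0.20, adjusted p = 0.678 in edgeR). Jak1, the gene in the genotype label, was at 280 to 335 and 273 to 324 CPM (-0.06, adjusted p = 0.815 in edgeR), and neither level in whole skin checks a deletion confined to sensory neurons. Jak3 was at -0.29 (adjusted p = 0.425 in edgeR), Stat4 at 0.54 (0.351) and Stat5a at -0.17 (0.509).

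Cul5, the cullin that SOCS boxes recruit, was at 73.5 to 102 CPM in the Littermate and 85.5 to 99.6 CPM in the Experimental libraries (log2 fold change 0.22, adjusted p = 0.358 in edgeR). Littermate 2 alone held the high Littermate value, and without that library the estimate was 0.35 with an adjusted p of 0.0259 in edgeR, where 2.01% of all genes were called. Arih2, the ubiquitin ligase that works with cullin 5, was at 0.12 (adjusted p = 0.559 in edgeR). Of the other brakes, Sh2b3 was at -0.23 (adjusted p = 0.337 in edgeR) and Pias4 at -0.16 (0.476). Of the STAT targets, Bcl3 was at -0.38 (adjusted p = 0.159 in edgeR), Myc at -0.31 (0.339) and Bcl6 at -0.28 (0.355). Bcl6 passed without Littermate 2, at -0.39 with an adjusted p of 0.0468 in edgeR. Without that library and with the GC correction, 0 genes of the pathway lists were called, so the calls of Cul5 and Bcl6 were lost. Of the other SOCS-box genes, Asb16 was at -0.65 (adjusted p = 0.134 in edgeR, 0.0289 in DESeq2) and Asb10 at -0.46 (adjusted p = 0.328 in edgeR).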

How the data were processed

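Whole ear skin RNA of mice (4 Littermate and 6 Experimental libraries) was depleted of ribosomal RNA and read as single 50-base reads, per the labels' protocols. The submitters' processing notes name STAR 2.0.4b, featureCounts 1.4.5 and the genome build mm10. The authors deposited a raw count and an RPKM value per Ensembl gene for each library. The RPKM were used for levels between genes and the counts for all else. Symbols came from GENCODE M21 for 97.3% of the 41388 genes.

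The deposited counts (11520348 to 41935183 per library) were normalized by TMM to CPM (counts scaled to a library of 1e6) and tested in edgeR 4.0.16 (R 4.3.3) by the quasi-likelihood test with group as the only term, after filterByExpr, with Benjamini-Hochberg adjustment over 16830 genes and a threshold of 0.05. The test was checked on simulated counts. Correlations used log2 CPM (prior count 2), 100000 permutations for 10 libraries and exact permutations for fewer or centred values. The GC correction subtracted a lowess curve (span 0.3) per library on the GC content of the longest transcript, known for 99.3% of tested genes.

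Alternatives were DESeq2 1.42.0, limma 3.58.1 (voom), other size factors and filters, a replicate block, a covariate of Y-linked genes, leaving out libraries (each in turn, the 2 deepest, and Littermate 2 with Experimental 6, which earlier results of these data singled out), and other correlation settings. GC-corrected correlations, the GC correction together with left-out libraries, the variation between libraries and the marker correlations were added after seeing the data. The members, gene lists and partners were chosen with earlier results of these data known. Named were the 8 members, the partners, the list genes that passed with all 10 libraries (none) or had the lowest p (2 or 3 a list), Il4ra, Jak1, Scn10a, and the 3 genes most correlated with each member. Of the partner pairs, 1 is not reported here. Genes named in passing as markers belong to the lists. Sequences are from RefSeq, and a window was used for 4 of 8 members, with chr18, where Socs6 lies, left out.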

Additional observations from a re-analysis of the deposited data

Results flagged for a closer look

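A gap rule (Dixon's, at 95%) was applied to both groups of library values of 61 genes, the 8 members, 29 pathway and partner genes and the 24 genes most like a member. Of these 122 groups 10 had a library far from the rest of its group, where chance gives about 1 in 20. The 24 similar genes were chosen for following a member, so their values are not independent of it. For Socs3, Experimental 6 was at 103.1 CPM, and the other 5 Experimental libraries lay between 59.6 and 73.5 CPM. The same library was far above its group for Osm, at 22.05 CPM against 3.51 to 8.43 CPM, and for Il6, at 4.713 CPM against 1.29 to 2.27 CPM. Among the genes most like Socs3 it was at 41.89 CPM for Il18rap against 15.6 to 19.4 CPM, at 58.24 CPM for Cxcl5 against 2.41 to 11.3 CPM, and at 121.9 CPM for Fcgr3 against 69.1 to 87.2 CPM. For Socs6, Littermate 4 was low at 43.48 CPM, and the other 3 Littermate libraries lay between 50.1 and 51.5 CPM. Metap2, among the genes most like Socs6, was at 70.6 CPM in that library against 95.1 to 98.6 CPM. For Cul5, Littermate 2 was high at 101.6 CPM, against 73.5 to 75.4 CPM, and for Atl3, among the genes most like Socs4, it was high at 247.7 CPM, against 215.4 to 219.8 CPM.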

How the results depend on the processing

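The count of SOCS genes called was 0 in 23 of 24 alternatives and 1 (Socs3, -0.35) without Littermate 2 and Experimental 6. The count over all genes was unstable: 3 with all libraries, 78 with no filter on low counts, 232 in DESeq2, 60 in voom, 67 with the replicate block, 563 without Littermate 2 and Experimental 6, and 3 to 343 with single libraries left out (343 without Littermate 2, 28 without Experimental 6, 8 without Littermate 3). With the GC correction added it was 273 without both libraries, 27 without Experimental 6 and 54 without Littermate 2. Of the pathway lists' members, 4 were called in DESeq2 (Csf3, Tslp, Lepr, Asb16), 2 in voom, 1 with the replicate block (Csf3r), 9 without both libraries (Csf3r, Csf2rb, Csf2rb2, Csf3, Tslp, Cul5, Bcl6, Spsb1 and Ccl24), 4 without both with the GC correction, 1 without Experimental 6 with the GC correction (Csf3), 0 without Littermate 2 with the GC correction, and 0 to 3 with single libraries left out. The cause of these moves was not tested.

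The estimates that follow changed sign, and none of them passed on either side. Cish was at 0.008 with upper quartile factors, 0.031 with the replicate block (a paired fit, although same-numbered libraries did not deviate together, r = -0.02 to 0.09), 0.19 with the Y-linked covariate, 0.033 with the GC correction (also without Experimental 6) and 0.007 without the 2 deepest libraries. Under the Y-linked covariate, Socs1 was at 0.03, Socs4 at -0.011, Socs5 at 0.059, Socs6 at -0.022, Socs7 at -0.027 and Jak3 at 0.012. Socs2 was at 0.003 with upper quartile factors and 0.074 without the 2 deepest libraries. With the GC correction Socs4 was at -0.015 without both libraries and -0.006 without Littermate 2, and Socs6 at -0.008, -0.001 without both and -0.021 without Littermate 2. Single libraries left out gave -0.12 to 0.113 for Cish, -0.046 to 0.036 for Socs2, -0.16 to 0.039 for Socs5 and -0.022 to 0.076 for Socs7. The pairs of SOCS genes that passed numbered 1 with each library left out, and 0 with the GC correction, 0 with it on centred values and 0 in the 6 Experimental libraries alone. Partner pairs that passed numbered 1 with the GC correction and 0 to 2 with single libraries left out, and marker pairs 0 to 1. Levels per length moved by less than their SD under all alternatives run. Leaving out a single library cannot move a mean by its SD, so that part could not have come out otherwise. The other alternative, TMM-normalized CPM per length, used factors of only 0.984 to 1.023. With 4 and 6 libraries, the intervals leave changes of the size shown beside each member undetected.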
